A study of Mus musculus with 8 samples.

Results

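Steroid hormone synthesis in the testis belongs to Leydig cells, and the genes described here are 9 that serve it: Scarb1, Star, Cyp11a1, Fdx1, Fdxr, Nr5a1, Cyp17a1, Hsd3b1 and Hsd17b3. Their signals were read in cultured spermatogonial stem cells of the mouse, which renew themselves and found sperm production, on 8 Affymetrix arrays. Each gene was read from a probe set that carries its symbol and no other, and from the one with the highest mean over the 8 arrays where there were several. With this rule 8 of the 9 genes were measured, each by 1 probe set, among 19938 measured genes and 28944 probe sets. Fdxr is not analysed here, because none of the probe sets used carries its symbol alone.

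The arrays fell into 3 groups. In the young short-culture group (n = 3) the cells came from donors aged 8 days and had spent 7 to 10 weeks in culture. The young long-culture group (n = 3) had donors of the same age, 8 days, and cells kept for 14 to 18 months. In the serial long-culture group (n = 2) the cells had been serially transplanted, with 1500 days given as the age of the donor, and were likewise kept for 14 to 18 months. All 8 arrays held labelled cRNA made from 100 ng of total RNA. In the serial group a higher stated age goes with serial transplantation, so the effects of both cannot be told apart. Whether the 1500 days belong to a single animal or were added up over the transplants was not examined. The mouse strain, the culture conditions and the way stem cells were separated from other cells of the culture are not given in the labels. They also leave unsaid whether the arrays of a group came from separate donors or cultures, so the p-values reflect the spread of these arrays alone, and that spread may be technical.

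Leydig cells lie between the seminiferous tubules and make testosterone from cholesterol when luteinizing hormone raises their cAMP. Cholesterol enters partly through the lipoprotein receptor SCARB1, STAR carries it to the inner mitochondrial membrane, and CYP11A1 cuts its side chain to give pregnenolone, with electrons passed on by FDXR and FDX1. HSD3B1, CYP17A1 and HSD17B3 then complete the path to testosterone, and the nuclear receptor NR5A1, also called SF-1, switches on many of these genes. Germ cells are not known as a main source of testosterone.

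Values are log2 RMA signals, in which background-corrected and normalized probe intensities are summarised per probe set. The medians of the 8 arrays ran from 6.90 to 6.98. Detection calls do not come with RMA, and a background mark was set on each array at the 95th percentile of 1194 olfactory and vomeronasal receptor genes, which are largely silent outside sensory tissue, and it lay between 5.84 and 6.11. A gene is called above background in a group where all of the group's arrays exceed their own mark, and at background where none do. Within the young short-culture group, replicate 2 stood apart from the other 2 arrays, with correlations of 0.991 and 0.990 to them over all probe sets against 0.996 between those 2. Differences between groups were tested with limma over all 28944 probe sets, with Benjamini-Hochberg adjustment and a threshold of 0.05.

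In short culture 5 of the 8 measured genes were above background: Scarb1, Star, Cyp11a1, Fdx1 and Nr5a1. In both long-culture groups 4 of these stayed above it and Cyp11a1 was at background. The 3 genes of the later steps, Cyp17a1, Hsd3b1 and Hsd17b3, were at background on all 8 arrays. Cyp11a1 was 5.09-fold lower, Star 1.99-fold lower and Nr5a1 1.42-fold lower in young long than in young short culture, and the other 5 did not pass the test. Thus 3 of 8 genes fell and 0 rose. Of all genes 12.8% were called in this comparison, 6.69% as lower and 6.1% as higher. The 8 genes were chosen with earlier results of these data known, so setting them against all genes is no test of an excess.

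**Figure D1:**
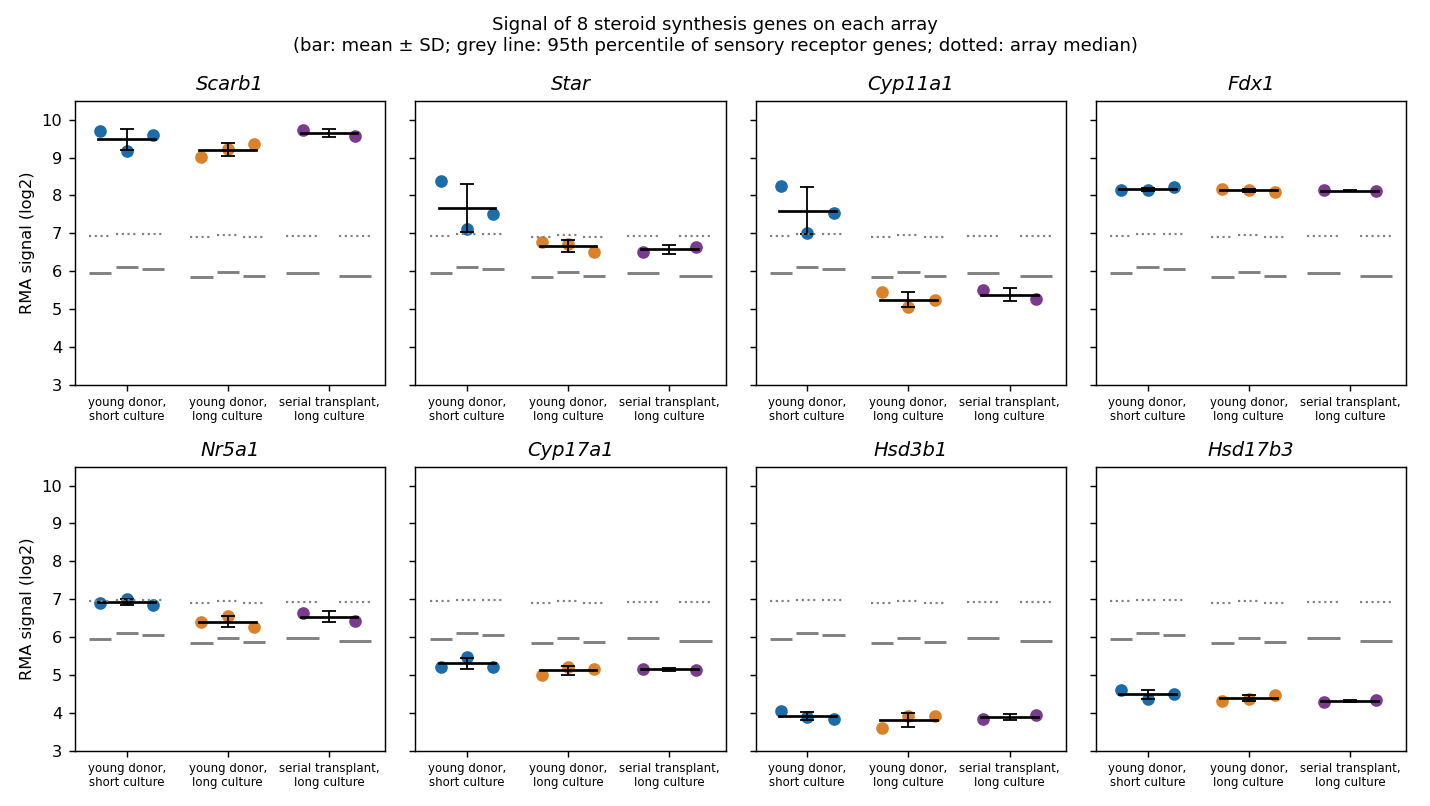
RMA signal (log2, vertical axis) of the 8 measured genes on each array, grouped by donor and culture along the horizontal axis; points are arrays, black bars the mean ± SD, grey lines the background mark of each array and dotted lines the array median. Cyp11a1 lies above the mark on the 3 short-culture arrays and below it on the 5 long-culture arrays, while Cyp17a1, Hsd3b1 and Hsd17b3 lie below it on all 8.

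Cyp11a1, which encodes the cholesterol side-chain cleavage enzyme, had the largest difference of the 8. Its log2 signal was 8.24, 7.01 and 7.54 in young short-culture replicates 1, 2 and 3. It was 5.45, 5.06 and 5.23 in the young long-culture arrays and 5.50 and 5.26 in the serial long-culture arrays. Every short-culture array was thus above every long-culture array. The group means were 7.60 ± 0.62 (SD, n = 3), 5.25 ± 0.20 (SD, n = 3) and 5.38 ± 0.17 (SD, n = 2). Young long minus young short was -2.35 ± 0.24 on the log2 scale (SE, 95% interval -2.88 to -1.82, limma adjusted p = 0.000678). Serial long minus young short was -2.22 ± 0.27 (SE, 95% interval -2.81 to -1.62, limma adjusted p = 0.00219), a 4.64-fold lower signal. Since both long-culture means lie below the background mark, these folds depend on the background signal of the probe set. Set against the mean mark of the long-culture arrays, 5.89 and 5.92, the fall was at least 3.26-fold in young and at least 3.19-fold in serial long culture.

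The spread of Cyp11a1 over the 8 arrays was an SD of 1.24, and 0.0502% of the 19938 genes had a larger one. The fall in young long culture passed the test with each of the 8 arrays left out in turn, at limma adjusted p between 6.28e-05 and 0.00575. The fall in serial long culture did not pass without serial replicate 2 (limma adjusted p = 0.0594), where a single serial array was left and assumed to vary like the other groups.

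RefSeq lists transcription starts of Cyp11a1 on the forward strand of mouse chromosome 9 (GRCm38.p6), and the 250 bases before each of 2 starts are shown because Cyp11a1 is the gene whose signal moved most. The windows are chr9:57997774-57998023 for the upstream start and chr9:58014702-58014951 for the downstream start, both 5′ to 3′ on the forward strand, with a GC content of 57.6% and 50.4%. Capitals mark the only match to the motifs searched, AGGTCA, the core of many nuclear receptor sites.
Cyp11a1 upstream start: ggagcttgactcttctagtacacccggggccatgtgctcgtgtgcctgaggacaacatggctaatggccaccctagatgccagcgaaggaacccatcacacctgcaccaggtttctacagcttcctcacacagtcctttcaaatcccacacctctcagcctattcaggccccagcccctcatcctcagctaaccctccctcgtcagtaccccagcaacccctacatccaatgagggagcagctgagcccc
Cyp11a1 downstream start: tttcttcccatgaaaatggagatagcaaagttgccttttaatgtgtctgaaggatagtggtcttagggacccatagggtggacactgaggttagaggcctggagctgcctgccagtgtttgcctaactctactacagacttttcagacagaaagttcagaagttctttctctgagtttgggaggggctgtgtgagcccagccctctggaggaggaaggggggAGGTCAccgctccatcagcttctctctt
The match lies 28 to 23 bases before the downstream start, and the upstream window holds none. The motifs were searched on both strands: AAGGTCA, the extended site that NR5A1 binds, and TGACGT, part of the cAMP response element. A further pair was TGATAA and its relative AGATAA, to which factors such as GATA4 bind. AGGTCA, which is contained in AAGGTCA, was added after the sequences were seen. Among 32851 RefSeq promoter windows of the same length, AGGTCA occurs in 14.0%, AAGGTCA in 4.08%, TGACGT in 6.47%, TGATAA in 7.94% and AGATAA in 9.99%. A match is a description of these letters and not a bound site, and which start the RNA came from was not examined. RefSeq promoter windows were at hand for 5 of the 9 genes, with 6 windows in all, and none held AAGGTCA or TGACGT. Fdx1 and Fdxr each had TGATAA, at 192 to 187 and 177 to 172 bases before the start. Hsd3b1 had AGATAA on the reverse strand at 134 to 129 bases before it, and Hsd17b3 had no match.

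Star encodes the carrier that brings cholesterol into the mitochondrion, the acutely regulated step of steroid synthesis. Its log2 signal was 8.37, 7.11 and 7.51 in young short-culture replicates 1, 2 and 3. It was 6.78, 6.73 and 6.50 in the young long-culture arrays and 6.50 and 6.65 in the serial arrays. All 5 long-culture arrays lay below the 3 short-culture arrays, yet above their own background marks and below their own array medians. As for Cyp11a1, replicate 1 was the highest and replicate 2 the lowest of the short-culture arrays. The means were 7.67 ± 0.64 (SD, n = 3) in young short, 6.67 ± 0.15 (SD, n = 3) in young long and 6.57 ± 0.11 (SD, n = 2) in serial long culture.

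For Star, young long minus young short was -0.996 ± 0.244 on the log2 scale (SE, 95% interval -1.53 to -0.46, limma adjusted p = 0.0250). Serial long minus young short was -1.09 ± 0.27 (SE, 95% interval -1.69 to -0.49, limma adjusted p = 0.0308), a 2.13-fold lower signal. The young long-culture call was lost without young long replicate 1, 2 or 3 (limma adjusted p = 0.0645, 0.0601 and 0.101), and without young short replicate 1 the difference shrank to -0.64. The serial call was lost without young long replicate 2, serial replicate 1 or serial replicate 2 (limma adjusted p = 0.0511, 0.151 and 0.190), with only the arrays of both groups in the fit (0.0844) and after quantile normalization (0.0519).

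Nr5a1 encodes the transcription factor that switches on Star, Cyp11a1 and other genes of the path. Its log2 signal was 6.89, 7.01 and 6.85 in young short culture, 6.40, 6.57 and 6.25 in young long culture and 6.65 and 6.43 in serial long culture. The short-culture arrays were above all 5 long-culture arrays, by a smaller margin than for Cyp11a1 or Star. All 8 arrays exceeded the background mark, but only short-culture replicate 2 exceeded its array median. The means were 6.92 ± 0.08 (SD, n = 3), 6.41 ± 0.16 (SD, n = 3) and 6.54 ± 0.15 (SD, n = 2). Young long minus young short was -0.51 ± 0.11 (SE, 95% interval -0.75 to -0.26, limma adjusted p = 0.0168), and the call was lost without young long replicate 1 or 3 (0.0564 and 0.0843). Serial long minus young short was -0.38 ± 0.13 (SE, 95% interval -0.65 to -0.10, limma adjusted p = 0.0917), which did not pass the test.

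Scarb1 encodes the receptor that takes up cholesterol esters from high-density lipoprotein, in Leydig cells and in many other cells. Its log2 signal was 9.69, 9.18 and 9.59 in young short, 9.03, 9.23 and 9.36 in young long and 9.73 and 9.58 in serial long culture. The arrays of young short and young long culture overlapped, whereas both serial arrays lay above all 3 young long-culture arrays. The means were 9.49 ± 0.27 (SD, n = 3), 9.21 ± 0.17 (SD, n = 3) and 9.65 ± 0.11 (SD, n = 2). Young long minus young short was -0.28 ± 0.14 (SE, 95% interval -0.59 to 0.03, limma adjusted p = 0.244), and serial long minus young short was 0.17 (95% interval -0.18 to 0.52, limma adjusted p = 0.630).

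Fdx1 encodes ferredoxin, the electron carrier that serves CYP11A1 and other mitochondrial enzymes in most cells. Its log2 signal was 8.15, 8.13 and 8.21 in young short, 8.16, 8.15 and 8.09 in young long and 8.13 and 8.13 in serial long culture. The arrays of the 3 groups overlapped and spanned 0.124 log2 units in all. The SD over the 8 arrays was 0.035, and 99.9% of the 19938 genes had a larger one. Young long minus young short was -0.03 (95% interval -0.23 to 0.16, limma adjusted p = 0.853), and serial long minus young short was -0.04 (limma adjusted p = 0.893).

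The enzymes that follow CYP11A1 were at background throughout. Cyp17a1, which encodes the 17-hydroxylase and lyase that turns progestogens into androgens, read 5.22, 5.48 and 5.22 in young short, 4.99, 5.22 and 5.16 in young long and 5.17 and 5.12 in serial long culture. Hsd3b1, the gonadal and adrenal 3-beta-hydroxysteroid dehydrogenase, read 4.04, 3.88 and 3.82, then 3.61, 3.92 and 3.92, and 3.82 and 3.94 in the same order. Hsd17b3, which makes testosterone from androstenedione, read 4.61, 4.36 and 4.48, then 4.32, 4.37 and 4.47, and 4.28 and 4.33. None of these values reached the mark of its array. Values at background give no order of RNA levels, and limma called none of these differences, with adjusted p from 0.330 to 0.632 in young long and from 0.408 to 0.935 in serial long against young short culture.

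Set against young short culture, all 8 genes had a negative difference in young long culture and 7 had one in serial long culture. Of all 19938 genes, 11329 and 10338 had one. Cyp17a1, Hsd3b1 and Hsd17b3 are counted both times, and at background their values give no order of RNA levels. The medians were -0.23 and -0.17 for the 8 genes, against -0.04 and -0.01 over all genes. After median centring of the arrays Fdx1 was positive in both comparisons, at 0.016 and 0.0077, and Hsd3b1 in serial long culture, at 0.013. The arrays of Cyp11a1, Star and Nr5a1 did not overlap between young short and young long culture, the short-culture arrays being higher; 17.8% of all genes had no overlap in that direction. The same 3 genes did not overlap in that direction between young short and serial long culture, against 20.4% of all genes. The arrays of Cyp17a1 and Hsd17b3 did not overlap in that direction there either. These 2 genes lie at background, and the 20.4% likewise includes genes at background. In that comparison limma called 2 of the 8 genes, Cyp11a1 and Star, both lower, against 10.1% of all genes called, 5.96% as lower and 4.1% as higher. Both comparisons use the same 3 short-culture arrays, so they are not independent of each other.

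**Figure D2:**
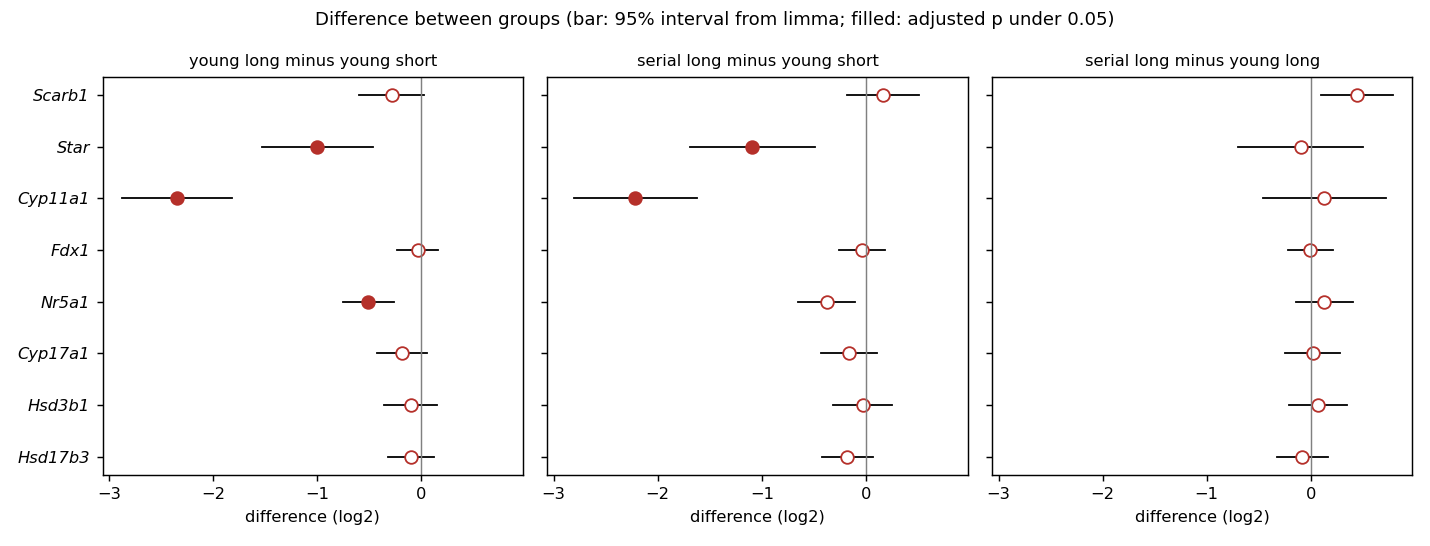
Difference between group means (log2, horizontal axis) for the 8 measured genes in 3 comparisons; bars are 95% intervals from limma and filled points have an adjusted p under 0.05. Cyp11a1 and Star lie left of 0 in both comparisons with short culture, Nr5a1 is called in the left panel only, and the right panel has no filled point.

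Between the long-culture groups, which differ in stated donor age and serial transplantation together, limma called none of the 8 genes. This was so for all genes, with 0.0% called at an adjusted p under 0.05, while 7.21% of genes and 1 of the 8, Scarb1, had an unadjusted p under 0.05. Over all probe sets the alternatives in the fit called from 0 to 22. Serial long minus young long was 0.13 for Cyp11a1 (95% interval -0.46 to 0.73), -0.10 for Star (-0.70 to 0.50) and 0.13 for Nr5a1 (-0.15 to 0.40). The intervals of Cyp11a1 and Star are wide, so the groups are not shown to be alike for these genes. Cyp11a1 was at background in both groups, so its difference gives no order of RNA levels. These intervals use the spread of all 8 arrays. With only the arrays of both groups in the fit, the SE was 0.14 for Cyp11a1 and 0.12 for Star, against 0.27 for either gene. Scarb1 was higher in serial long culture by 0.45 ± 0.16 (SE, 95% interval 0.10 to 0.80, limma adjusted p = 0.587), with no overlap between the arrays, as for 15.1% of all genes. Fdx1 differed by -0.00 (95% interval -0.22 to 0.21).

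Other genes of the path were read from 4 lists by role: further steroid enzymes, cholesterol supply, hormone and cAMP signalling, and transcription regulators. Of the 109 measured genes on these lists, 19 were called in young long against young short culture, 8 higher and 11 lower, where 12.8% of all genes were called, 6.1% higher and 6.69% lower. In serial long culture 22 were called, 8 higher and 14 lower, where 10.1% of all genes were called, 4.1% higher and 5.96% lower. Between the long-culture groups limma called 0, with 9 at an unadjusted p under 0.05. Of all genes 7.21% had such a p there, a share near that of the lists, so the 9 are no result about them. Without serial replicate 2 none of the 22 passed, and limma then called 66 probe sets over the whole array in serial long against young short culture, compared with 2528 with it.

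**Figure D3:**
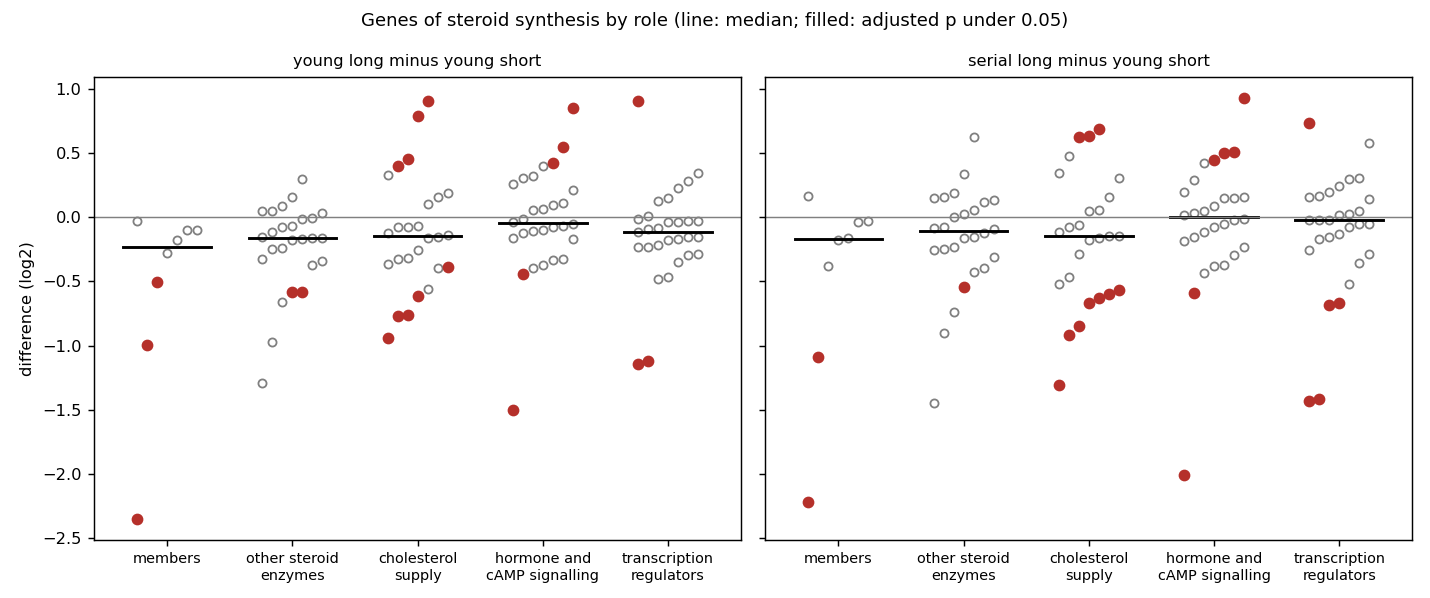
Difference to young short culture (log2, vertical axis) of the 8 measured genes and of 4 lists of other genes of steroid synthesis, for young long and serial long culture; points are genes, lines are medians and filled points have a limma adjusted p under 0.05. The steroid enzymes have 2 filled points at left and 1 at right, all below 0, while the other 3 lists of pathway genes have filled points on both sides of 0.

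Of 26 further steroid enzymes measured, 13 were above background in at least 1 group, 2 fell in young long and 1 in serial long culture, and none rose. These shares lie near those of all genes called lower, 6.69% and 5.96%, so they are no result about the enzymes. The list medians were -0.16 and -0.11. Hsd17b10, a mitochondrial dehydrogenase that also acts on fatty acids and in tRNA processing, fell by 0.58 ± 0.12 on the log2 scale in young long culture (SE, limma adjusted p = 0.0126). Hsd3b7, which belongs to bile acid synthesis, fell by 0.58 ± 0.13 (SE, limma adjusted p = 0.0159) and in serial long culture by 0.55 (0.0354). The Hsd3b7 signal was 7.29, 7.53 and 7.10 in short culture and between 6.61 and 6.87 on the 5 long-culture arrays. Its young long-culture call was lost without young long replicate 1 or 2 (limma adjusted p up to 0.0538), that of Hsd17b10 without young long replicate 1 (0.0530), and the serial call of Hsd3b7 with 6 of the 8 arrays left out in turn (up to 0.329). The serial call of Hsd3b7 was also lost with array weights, with only the arrays of both groups, after quantile normalization, after median centring and with the replicate block (limma adjusted p = 0.0503, 0.0854, 0.0602, 0.0525 and 0.0585). Neither gene makes sex steroids as its main role.

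Several genes that mark committed steroid-producing cells were at background in every group. Hsd3b6, the 3-beta-hydroxysteroid dehydrogenase of adult Leydig cells, had means of 4.98, 4.81 and 4.98 in young short, young long and serial long culture. Nr0b1, which encodes the NR5A1 repressor DAX1, had 4.65, 4.56 and 4.70. Of the adrenal hydroxylases, Cyp21a1 (5.44, 5.47 and 5.59) and Cyp11b1 (5.47, 5.13 and 5.07) were at background as well. Cyp11b2 was above the mark on all 8 arrays, with means of 6.46, 6.45 and 6.48, but below the array median on each. Cyb5a, a helper of the lyase step of CYP17A1 that is widely expressed, was above background with 8.51, 9.43 and 8.26 in short culture and did not pass the test (limma adjusted p = 0.109 and 0.134 against young and serial long culture). Its difference of -0.66 in young long culture ranged from -0.90 to -0.31 with an array left out, and without young short replicate 3 it passed in both comparisons (0.0292 and 0.0333). Lhcgr, the luteinizing hormone receptor, Insl3, the Leydig cell hormone, and Por are not analysed here.

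Genes of cholesterol supply moved in both directions. Of 26 measured, 25 were above background in at least 1 group. In young long culture 4 rose and 5 fell, and in serial long culture 3 rose and 7 fell, with medians of -0.14 and -0.15. Over all genes, 12.8% were called in young long culture, 6.1% higher and 6.69% lower, and 10.1% in serial long culture, 4.1% higher and 5.96% lower. Pltp, a phospholipid transfer protein of plasma lipoproteins, fell by 0.94 in young long and 0.85 in serial long culture (limma adjusted p = 0.00484 and 0.0125). Insig2, which holds the sterol sensor in the endoplasmic reticulum, fell by 0.76 and 0.92 (0.00869 and 0.00731). Npc2, which exports cholesterol from lysosomes, fell by 0.61 and 0.67 (0.0199 and 0.0246), and its young long-culture call was lost without young long replicate 1, 2 or 3 (up to 0.0752). Its serial call was lost without serial replicate 1 or 2 (0.121 and 0.174) and with only the arrays of both groups (0.0749). Lipa, the lysosomal lipase that frees cholesterol from its esters, differed by -0.77 in young long culture (0.0263) and by -1.30 in serial long culture (0.00583), so it fell in both. Abcg1, a cholesterol exporter, rose by 0.79 in young long culture (0.0102) and by 0.62 in serial long culture (0.0478).

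Stard6, a Star-like lipid carrier known from germ cells and chosen here after its values were seen, went the opposite way to Star. It read 5.72, 5.66 and 5.66 in short culture and between 6.25 and 6.80 on the long-culture arrays, so that it was below the background mark in short culture and above it afterwards. On every array it lay below the array median. Of its 2 probe sets the brighter was read, and the other is not described here. The measured differences were 0.90 and 0.68 in young and serial long culture (limma adjusted p = 0.00315 and 0.0162), and set against the mean mark of the short-culture arrays the rise was at least 1.46-fold and at least 1.26-fold.

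In the list of hormone and cAMP signalling, 24 of 28 measured genes were above background in at least 1 group. In young long culture 3 rose and 2 fell, and in serial long culture 4 rose and 2 fell, with medians of -0.04 and 0.00. The shares of all genes called in these comparisons were 12.8% and 10.1%. Adcy3, an adenylyl cyclase, rose by 0.85 and 0.93 in young and serial long culture (limma adjusted p = 0.00406 and 0.00554). Pdgfra, a growth factor receptor of Leydig progenitors and of fibroblasts, fell by 1.50 in young long culture (0.0105) and fell by 2.01 in serial long culture (0.00606). Its signal was 11.53, 12.45 and 11.48 in short culture, highest in replicate 2. Of the subunits of protein kinase A, the regulatory Prkar2b rose by 0.54 in young long culture (0.0115; 0.0620 without young long replicate 3) and the catalytic Prkacb fell by 0.59 in serial long culture (0.0156; 0.0502 with only the arrays of both groups and 0.205 without serial replicate 2). Sik1, a kinase that restrains cAMP signalling, fell by 0.44 in young long culture (0.0286), a call lost with 5 of the 8 arrays left out in turn (up to 0.113). Pde4a, a cAMP phosphodiesterase, rose by 0.50 in serial long culture (0.0242), a call lost without young short replicate 1, serial replicate 1 or serial replicate 2 (up to 0.151), or with only the arrays of both groups (0.0721).

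Of 29 transcription regulators measured, 25 were above background in at least 1 group. In young long culture 1 rose and 2 fell, and in serial long culture 1 rose and 4 fell, with medians of -0.11 and -0.02. The 3 called in young long culture are a share near the 12.8% of all genes called, and in serial long culture 10.1% of all genes were called. Nr2f1 and Nr2f2, nuclear receptors of stromal and interstitial progenitor cells, differed by -1.14 and -1.12 in young long culture (limma adjusted p = 0.00780 and 0.00854) and by -1.43 and -1.41 in serial long culture (0.00575 and 0.00621), so both fell. The Nr2f2 signal was 9.17, 9.52 and 8.83 in short culture and between 7.34 and 8.19 afterwards. Wt1, a regulator known from Sertoli cells, rose by 0.90 in young long culture (0.00838) and by 0.73 in serial long culture (0.0344), where its call was lost with 7 of the 8 arrays left out in turn (up to 0.264), with only the arrays of both groups (0.0918) and after quantile normalization (0.0543). Nr5a2, the closest relative of Nr5a1, read 9.02, 8.55 and 8.56 in young short, 8.64, 8.18 and 8.27 in young long and 8.13 and 7.96 in serial long culture. It fell by 0.67 in serial long culture (limma adjusted p = 0.0350), a call lost after median centring (0.0552), with only the arrays of both groups (0.0591) and without 4 of the 8 arrays in turn (up to 0.299), and its difference of -0.35 in young long culture did not pass (0.180). Gata4, a partner of NR5A1 in gonadal cells, had means of 7.27, 6.99 and 7.02 and was not called (0.171 and 0.329).

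The label of these genes was set against markers of the cell types that make steroids. Of 16 Leydig cell markers 11 were measured, and 6 were above background in short culture and 4 in either long-culture group. Cyp11a1, Star, Nr5a1, Cyp17a1, Hsd3b1 and Hsd17b3 are themselves on this list, so it is no independent check of the name. Star, Agt and Nr5a1 had the highest means of the list, and Cyp17a1, Hsd3b1, Hsd3b6, Hsd17b3 and Sult1e1 were at background on all arrays. The summed linear signal of the list ranged from 843 to 1143 in short culture, from 543 to 586 in young long and from 589 to 595 in serial long culture. The genes that fell in young long culture were Cyp11a1, Star and Nr5a1 alone, so the list adds none. Of 7 measured markers of adrenal cortex, 3 were above background in every group, Dab2, Cyp11b2 and Mrap, while Mc2r, the corticotropin receptor, was at background with Cyp21a1, Cyp11b1 and Nr0b1. Dab2, an endocytic adaptor that macrophages and fibroblasts also make, was the only one of them called in young long culture, at -1.21 (limma adjusted p = 0.00474). Cyp11b2, the aldosterone synthase, read between 6.31 and 6.70 on the 8 arrays, below the median of each. Of the Leydig list, Ptgds and Agt were above background in every group beside Star and Nr5a1. The later enzymes of testosterone synthesis were at background, and the called genes of the Leydig list are ones that the name already describes. The name Leydig-type is therefore used only as a label, and no cell type is assigned to the signal here.

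Markers of other cells also differed between the groups, where 6.69% of all genes were called lower in young long and 5.96% in serial long culture, and 6.1% and 4.1% higher. In bulk RNA fewer cells of a type and less RNA per cell cannot be told apart. The summed linear signal of 24 measured fibroblast markers ranged from 40212 to 60331 in short culture, 26411 to 27770 in young long and 17923 to 26816 in serial long culture. Of these markers 22 were above background in each group, Fn1, Vim and Dcn with the highest means, 16 fell in young long culture and 18 in serial long culture, and none rose. The 15 mast cell markers summed to 830 to 1732, 602 to 642 and 635 to 642, with 4, 4 and 3 above background, and 4 fell in each comparison with short culture, Cpa3 and Srgn among them. Gata2, Hdc and Tpsb2 had the highest means of that list. Fcer1a and Ms4a2, subunits of the mast cell IgE receptor, were at background on all arrays. The 14 markers of cytotoxic lymphocytes summed to 886 to 1262, 650 to 731 and 670 to 697, with 4, 3 and 3 above background, Prf1, Cd3e and Cd8a with the highest means, and 5 fell in each comparison with short culture.

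The 16 macrophage markers summed to 1305 to 1572, 934 to 978 and 932 to 1022. Of these 6, 3 and 6 were above background in the groups, 3 fell in young long and 4 in serial long culture, and the macrophage receptors Adgre1 and Csf1r were at background. Cd68, Fcgr3 and Mrc1 had the highest means. Among 8 measured markers of trophoblast giant cells, steroid-producing cells of the placenta, the sums were 592 to 964, 373 to 424 and 417 to 444, with 3, 3 and 2 above background and Prl2c5, Ascl2 and Hand1 the highest. The only one of them called was Prl2c5, a prolactin-family gene, which read 9.25, 9.24 and 7.93 in short culture and was -2.47 in young long culture (limma adjusted p = 0.00202). Of 13 measured Sertoli cell markers 10, 11 and 11 were above background, with sums of 4119 to 5345, 3625 to 4029 and 3968 to 4176, while Fshr was at background. In young long culture 2 of them rose and 1 fell, and in serial long culture 3 rose and 2 fell, and Ctsl, Clu and Trf had the highest means. The 15 germ cell markers summed to 18033 to 24507, 23422 to 25283 and 24461 to 24924, with 15, 15 and 14 above background, of which 5 rose and 3 fell in young long culture. Dazl, Ddx4 and Zbtb16 had the highest means among them. Germ cell markers were thus read on all arrays, beside the fibroblast markers, and the share of germ cells in the cultures was not measured.

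The order of the 3 short-culture arrays differed between the steroid genes and these lists. Cyp11a1 and Star were highest in replicate 1 and lowest in replicate 2. The mast cell sums were 830, 1732 and 1035 in replicates 1, 2 and 3, the cytotoxic lymphocyte sums 923, 1262 and 886, the macrophage sums 1305, 1572 and 1310, and the fibroblast sums 43361, 60331 and 40212. These 4 lists were thus highest in replicate 2, where the germ cell sum was lowest, at 18033 against 23573 and 24507. The trophoblast sum was 927, 964 and 592, lowest in replicate 3. Nr5a1 was highest in replicate 2. The part of other cells in the falls of Cyp11a1, Star and Nr5a1 was not tested. Without replicate 2 the differences of Cyp11a1 and Star were larger, at -2.64 and -1.27 in young long culture. Without replicate 1 they were smaller, at -2.02 and -0.64. Both follow from the order of the replicates for these genes and say nothing about other cells.

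**Figure D4:**
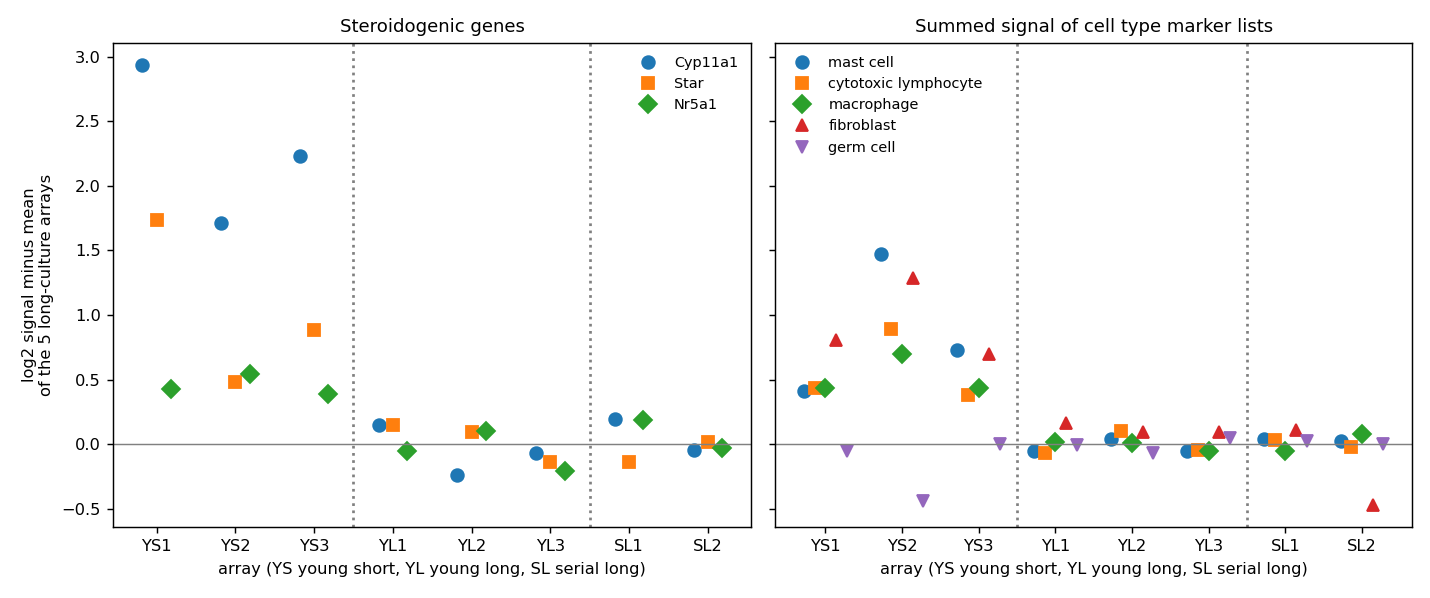
Log2 signal of Cyp11a1, Star and Nr5a1 (left) and log2 summed signal of 5 cell type marker lists (right) on each array, both minus the mean of the 5 long-culture arrays (vertical axis); YS, YL and SL are young short, young long and serial long culture. Cyp11a1 and Star peak on YS1 and are lowest among the short-culture arrays on YS2, where the mast cell, cytotoxic lymphocyte, macrophage and fibroblast lists peak.

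As a description of their profiles, each called gene was set against 11419 genes whose mean exceeded the overall probe set median in at least 1 group, by the root mean square difference of centred log2 signals over the 8 arrays. Nearest to Cyp11a1 were Adh1 (0.207), Tdrd9 (0.304), Zfp979 (0.324), Dpep3 (0.344) and Wfdc15a (0.396). Adh1 encodes an alcohol dehydrogenase that also oxidises retinol, and Tdrd9 a helicase of the piRNA pathway of germ cells. Adh1 had means of 8.93, 6.86 and 6.66 in young short, young long and serial long culture, and Tdrd9 had 8.08, 5.98 and 6.27.

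Nearest to Star were Lhx1 (0.201), Cd93 (0.224), Gbgt1 (0.228), Tex19.2 (0.241) and Bcl6b (0.241). Lhx1 and Bcl6b are GDNF-responsive transcription factor genes of spermatogonial stem cells. Bcl6b had means of 10.75, 9.75 and 9.86 and Lhx1 7.98, 6.68 and 6.59, so both were higher in short culture, as Star was. Nearest to Nr5a1 were Gdnf (0.0343), Gm1070 (0.0655), Dbn1 (0.0656), Tmem63a (0.0703) and Ptchd4 (0.0708), and Gdnf, the growth factor that maintains spermatogonial stem cells, had means of 6.96, 6.45 and 6.60. The 8 points of each profile share their arrays and their groups, so the values are a description only.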

How the data were processed

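The authors deposited log2 signals of each probe set on each array. The submitters' processing notes name Partek 6.4 and RMA; scanner files and the settings used were not analysed here. Of 35557 probe sets, 6613 whose identifiers run before the first named one were taken as controls and left out, which rests on their numbering alone. Genes were named through the platform annotation from probe sets with 1 symbol (21789 of 28944, with 21698 found in a RefSeq table). No 2 arrays held identical values. Group differences come from limma 3.58.1 (R 4.3.3), with 1 coefficient per group over all 8 arrays, eBayes and two-sided tests (5 residual and 6.28 prior degrees of freedom). The step was tested on simulated data. Errors of means are SD, and those of differences SE.

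The genes and lists were chosen with earlier results of these data known. Named pathway genes are up to 4 per list and comparison with the smallest p among those called, without overlap and with the higher group mean over 6.94, the overall probe set median. A set of 10 further genes was named always, and up to 3 with the highest means per cell type list. Alternatives were an intensity trend, array weights, fewer arrays, quantile normalization, leaving out dim probe sets, median centring, a log2 change of at least 1, a replicate block, each array left out and the mean over a gene's probe sets. Those for the pathway genes, and the motif AGGTCA, were added after seeing the data.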

Additional observations from a re-analysis of the deposited data

How the results depend on the processing

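Counts of called probe sets in young long against young short culture moved from 3260 to 396 with a log2 change of at least 1 and to 5079 with array weights, and ranged from 1085 to 3195 with an array left out. Steroid genes called moved from 3 to 1 with that fold requirement and from 1 to 3 with an array left out, and pathway genes from 19 to 3 and from 11 to 25. In serial long against young short culture the probe sets called were 2528, 564 with the fold requirement, 1252 with only the arrays of both groups, and 66 to 2817 with an array left out. There the steroid genes called were 2, 1 with only the arrays of both groups or after quantile normalization, and 0 to 2 with an array left out. The pathway genes called were 22, 4 with the fold requirement, 8 with only the arrays of both groups, and 0 to 28 with an array left out. Between the long-culture groups the probe sets called were 0, 22 with array weights, 15 with only the arrays of both groups, 6 with the mean of a gene's probe sets, and 0 to 11 with an array left out. Median centring turned the split of calls from 1573 higher and 1687 lower to 1970 and 1331 in young long, and from 1037 and 1491 to 1294 and 1242 in serial long culture.

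Signs turned only for Hsd3b1, Fdx1 and Cyp17a1, at differences near 0. In young long culture Fdx1 was 0.016 after median centring and Hsd3b1 -0.15 to 0.0044 with an array left out. In serial long against young short culture, Hsd3b1 was 0.013 and Fdx1 0.0077 after centring, and Hsd3b1 -0.091 to 0.0344 with an array left out. Between the long-culture groups, Cyp17a1 was -0.013 after quantile normalization and -0.0487 to 0.0649 with an array left out, and Hsd3b1 -0.0345 to 0.13. Fdx1 there was 0.016 with array weights, 0.010 after quantile normalization and -0.0255 to 0.0107 with an array left out. The cause was not tested.

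The arrays of the groups share replicate numbers, and the deviations of same-numbered arrays from their group means correlated at -0.306 to 0.174. With 2 or 3 arrays a group, these correlations cannot decide whether the numbers pair the arrays. With the replicate number as a block, 2754, 2468 and 4 probe sets were called in the 3 comparisons, and 3, 2 and 0 of the steroid genes. With 2 or 3 arrays a group, the spread is known poorly. Signals near the background mark compress differences, and a filter on dim probe sets leaves out Nr5a1, Cyp17a1, Hsd3b1 and Hsd17b3. With the array median as the mark in place of the sensory receptors, Star is above it on 3 arrays and Nr5a1 on 1.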

Other observations

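Among the further steroid enzymes, 2 genes of the Akr1c family, chosen after their values were seen, each had 1 short-culture array well above the others. Akr1c14 exceeded the background mark on 2 short-culture arrays and Akr1c18 on 1. Akr1c14, a 3-alpha-hydroxysteroid dehydrogenase, read 5.77, 7.86 and 6.20 in young short-culture replicates 1, 2 and 3, with means of 5.32 in young long and 5.16 in serial long culture. Akr1c18, the 20-alpha-hydroxysteroid dehydrogenase that inactivates progesterone, read 6.14, 4.61 and 4.32, with means of 4.06 and 4.12. Akr1c14 was thus highest in the replicate where Cyp11a1 was lowest, and Akr1c18 in the replicate where Cyp11a1 was highest. Neither passed the test in limma against young long culture (adjusted p = 0.0648 and 0.105).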
